A study of Mus musculus with 6 samples.

Results

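All 37 genes encoded by mouse mitochondrial DNA were rows of a table of 37411 gene counts from cultured hippocampal neurons, and their levels were followed across the 6 libraries. The genes were taken by their symbol, which starts with mt-, and were divided into 2 ribosomal RNA (rRNA) genes, 13 messenger RNA (mRNA) genes and 22 transfer RNA (tRNA) genes. The neurons came from hippocampi of CD-1 IGS pups at postnatal day 0 and were grown to day 16 in vitro (DIV 16). In one group 50 µM forskolin, an activator of adenylyl cyclase that raises cyclic AMP, was applied for 30 min (libraries 4, 5 and 6), and the other group received an equal volume of its solvent, DMSO (libraries 1, 2 and 3). The labels do not say whether the 3 libraries of a group came from separate cultures or litters, so p-values measure the spread between these libraries, which may be technical. The comparison asks how transcripts differ soon after cyclic AMP signalling is switched on.

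Mitochondrial DNA is a small circle that is transcribed from both strands into long precursor RNAs by a dedicated polymerase, Polrmt. Transfer RNAs lie between most of the longer genes and are cut out of the precursors, which frees the rRNAs and mRNAs on either side. The mRNAs encode core subunits of the respiratory chain and of ATP synthase, whose other subunits are encoded in the nucleus, and synaptic signalling in neurons draws heavily on this machinery. On the GRCm38 mitochondrial chromosome, 28 of the 37 genes lie on the plus strand and 9 on the minus strand, the latter being mt-Nd6 and 8 tRNA genes.

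Total counts ranged from 28342764 to 47548379 per library. The labelled cell type was checked with 14 neuronal markers, whose summed level was 4770 to 6098 CPM (counts per 1e+06 of the scaled library total) in the DMSO libraries and 3553 to 5696 CPM in the forskolin libraries. Of the 14, 7 were lower in every forskolin library than in any DMSO library (16.2% of all tested genes were), and edgeR called 1 of them lower, Rbfox3 (1.34% of all tested genes were called lower). The libraries also differed in ways that the labels do not explain. The 12 microglial markers, none of them at 0 in any library, summed to 23.1 to 34.8 CPM with DMSO and to 237, 401 and 25.1 CPM with forskolin (libraries 4, 5 and 6 in that order). The short nuclear RNAs (2041 genes of 60 to 99 bases) summed to 1216, 861 and 836 CPM in libraries 2, 4 and 5, but only to 74.8, 73.6 and 95.7 CPM in libraries 1, 3 and 6, a split that crosses the treatment groups. A list of RNAs that mostly lack a long poly(A) tail or come from cytosolic rRNA repeats held 16 tested genes. Of these, 8 were lower in every forskolin library than in any DMSO library (16.2% of all tested genes were) and 0 higher. Among the 8, Rpph1, the RNA of ribonuclease P, was at 8729, 9427 and 8054 CPM with DMSO and at 5688, 5007 and 898 CPM with forskolin. Gm26917 was at 4818, 3471 and 2878 CPM against 1811, 1387 and 336 CPM. Rny1 overlapped, at 77.2, 79.6 and 36.6 CPM against 80.1, 49.9 and 90.6 CPM. The part of these differences in the results that follow was not tested, other than by the values given beside them. In bulk RNA, fewer cells of a type and less RNA per cell cannot be told apart.

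Mitochondrially encoded genes took a larger share of the counts in every forskolin library than in any DMSO library. The share was 14.7%, 24.6% and 20.9% in libraries 1, 2 and 3 (DMSO), against 30.5%, 34.6% and 27.8% in libraries 4, 5 and 6 (forskolin). The means were 20.1% ± 5.0 (SD, n = 3) and 31.0% ± 3.42 (SD, n = 3), and the exact two-sided permutation test gave p = 0.1, the smallest value that 3 libraries against 3 allow. Nearly all of this was ribosomal: the rRNA genes held 95.1% to 96.8% of the mitochondrial counts in each library. Alone they took 14.0%, 23.7% and 19.8% of all counts with DMSO and 29.6%, 33.3% and 26.9% with forskolin (exact permutation p = 0.1). Counting error was small against this spread, since the 95% Wilson interval of the rRNA share of library 1 ran from 14.01% to 14.04%. The difference of 10.7 percentage points in rRNA was 9.96 among libraries 1, 3 and 6 and 7.68 among libraries 2, 4 and 5; since no forskolin library overlaps the DMSO libraries its direction there is given beforehand, and each of these subsets has 1 library in a group, so they hold no test. Across the 46 library measures given this exact permutation test, 13 reached p = 0.1, and the smallest p-value after Benjamini-Hochberg adjustment was 0.354.

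**Figure D1:**
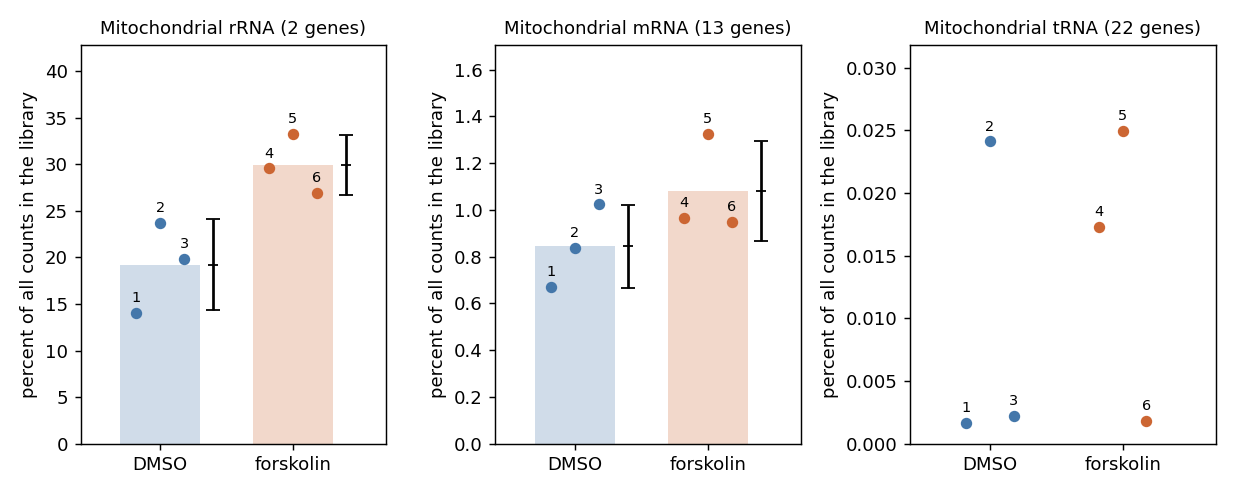
Percent of all counts in the mitochondrial rRNA, mRNA and tRNA genes (y axes, separate scales) in the DMSO and forskolin libraries (x axes), with each point labelled by its library number. Bars and error lines give the mean and SD of 3 libraries and are left out for tRNA, where the libraries fall into separate ranges. The forskolin libraries lie above the DMSO libraries for rRNA (26.9% to 33.3% against 14.0% to 23.7%), overlap them for mRNA, and for tRNA libraries 2, 4 and 5 lie apart from libraries 1, 3 and 6.

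The larger of the rRNAs carried the difference. mt-Rnr2 (chrM:1094-2675), the 16S rRNA of the large mitochondrial ribosomal subunit, took 12.3%, 20.2% and 17.1% of all counts with DMSO and 26.5%, 30.1% and 23.1% with forskolin. Every forskolin library was therefore above every DMSO library. mt-Rnr1 (chrM:70-1024), the 12S rRNA of the small subunit, took 1.69%, 3.53% and 2.76% with DMSO and 3.09%, 3.13% and 3.76% with forskolin. Its groups overlapped, with DMSO library 2 above forskolin libraries 4 and 5 (exact permutation p = 0.4). The ratio of mt-Rnr2 to mt-Rnr1 counts was 7.31, 5.73 and 6.19 with DMSO and 8.58, 9.64 and 6.15 with forskolin, so that library 6 lay among the DMSO libraries (exact permutation p = 0.3).

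In the model fitted over all 16233 tested genes with edgeR's quasi-likelihood test, mt-Rnr2 was higher with forskolin by 0.77 on the log2 scale (SE 0.47, adjusted p = 0.363) and mt-Rnr1 by 0.40 (SE 0.39, adjusted p = 0.56); neither passed the threshold of 0.05. The value for mt-Rnr1 was 0.14 without library 1 and 0.74 without library 2. DESeq2 gave a like difference for mt-Rnr2 (0.79) and called it (adjusted p = 0.0356), in a run that called 4.9% of all genes higher. The mitochondrial genes are poor in G and C (17.1% to 44.9%, median 35.6%, against a median of 49.5% for the tested nuclear genes). When each library's trend of counts on GC content was removed, the log2 difference of mt-Rnr2 became 0.07 and that of mt-Rnr1 -0.22. The trend was fitted on the nuclear genes without regard to group. A treatment difference that follows GC content is thus removed with it, and that fit called 0 of all tested genes.

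The 13 mRNA genes together took 0.670%, 0.839% and 1.02% of all counts with DMSO and 0.966%, 1.33% and 0.949% with forskolin. DMSO library 3 was above forskolin libraries 4 and 6, and the groups overlapped (exact permutation p = 0.3). The difference of 0.236 percentage points was 0.114 without library 5 and 0.149 without library 1. Of the counts outside mitochondrial rRNA, the mRNA genes held 0.779%, 1.10% and 1.28% with DMSO and 1.37%, 1.99% and 1.30% with forskolin. On that base every forskolin library was above every DMSO library, library 6 only just (exact permutation p = 0.1). There were 20.9, 28.3 and 19.4 rRNA counts for each mRNA count with DMSO and 30.6, 25.1 and 28.3 with forskolin (exact permutation p = 0.2). This ratio differed by 0.49 on the log2 scale within libraries 1, 3 and 6 and by -0.03 within libraries 2, 4 and 5. In the latter, DMSO library 2 lay between forskolin libraries 4 and 5. Each subset was chosen after the data were seen and has 1 library in a group, so neither holds a test of direction.

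Of the 13 mRNA genes, 7 were well counted and 6 had fewer than 100 counts in every library. Per kilobase of transcript, the well-counted genes and the rRNAs kept 1 order in all 6 libraries. mt-Rnr2 was highest with a mean over the 6 libraries of 138639 CPM per kilobase, followed by mt-Rnr1 at 31741, mt-Co1 at 4126, mt-Nd1 at 1250, mt-Cytb at 834, mt-Nd2 at 547, mt-Nd5 at 221, mt-Nd4 at 151 and mt-Nd6 at 90.1 CPM per kilobase. No pair of neighbours in this order changed places in any library. The place of mt-Nd4 depends on the length used. Only 502 of its 1378 bases lie outside a nuclear copy described below. With all of its counts divided by that length, its mean was 413 CPM per kilobase, above mt-Nd5. The length of mt-Nd5 was left whole, though nuclear copies elsewhere match part of it. With its counts divided by its 1062 bases outside the copy, mt-Co1 stood at 6002 CPM per kilobase and kept its place. Both values assume that no read from the copied bases was counted for the gene, which was not tested.

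By edgeR without a GC correction, mt-Nd1 and mt-Cytb showed the largest differences among the well-counted mRNAs. mt-Nd1 (chrM:2751-3707), a membrane core subunit of complex I, was at 683, 933 and 899 CPM with DMSO and at 1301, 2457 and 905 CPM with forskolin. Libraries 4 and 5 were above every DMSO library, while library 6 was below library 2. The edgeR difference was 0.89 (log2, SE 0.37, adjusted p = 0.220). mt-Cytb (chrM:14145-15288), the cytochrome b of complex III, was at 672, 741 and 796 CPM with DMSO and at 1033, 1610 and 872 CPM with forskolin. Its groups did not overlap, and the edgeR difference was 0.67 (log2, SE 0.25, adjusted p = 0.188).

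For both genes the call depended on library 6 and on the method. Without it, edgeR called mt-Nd1 (1.15, adjusted p = 0.0230) and mt-Cytb (0.83, adjusted p = 0.0216), but that fit called 16.5% of all genes higher. With weights for library quality, limma called mt-Nd1 (1.08, adjusted p = 0.0194), mt-Cytb (0.83, adjusted p = 0.0137) and mt-Rnr2 (0.80, adjusted p = 0.0363), in a fit that called 21.0% of all genes higher. Library 5, which had the highest microglial marker sum, was also the highest for mt-Nd1 and mt-Cytb, and without it their edgeR differences were 0.43 and 0.41 (adjusted p = 0.511 and 0.444). Once the trend on GC content had been taken out, the log2 differences were 0.26 for mt-Nd1 and 0.15 for mt-Cytb, smaller in size than those of mt-Nd2 (-0.71), mt-Nd6 (-0.68), mt-Nd5 (-0.42) and mt-Nd4 (-0.34).

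The other 5 well-counted mRNAs overlapped between the groups. mt-Co1 (chrM:5328-6872), the catalytic subunit of complex IV and the most counted mRNA, was at 3718, 5686 and 7002 CPM with DMSO and at 6475, 8580 and 6784 CPM with forskolin (edgeR log2 difference 0.41, adjusted p = 0.423, and 0.22 without library 1). The complex I subunit genes mt-Nd4 (chrM:10167-11544) and mt-Nd5 (chrM:11742-13565) differed by 0.38 (adjusted p = 0.342) and 0.17 (adjusted p = 0.75) by edgeR. Without library 5 these were 0.13 and -0.054. mt-Nd2 (chrM:3914-4951) was at 379, 637 and 712 CPM with DMSO and at 402, 791 and 487 CPM with forskolin. That is a difference of -0.04 by edgeR (SE 0.33, adjusted p = 0.951), which became -0.71 with the GC trend removed (adjusted p = 0.347). mt-Nd6 (chrM:13552-14070), the only mRNA gene on the minus strand, was at 32.7, 50.4 and 53.6 CPM with DMSO and at 37.9, 61.0 and 44.9 CPM with forskolin (0.07, adjusted p = 0.881). The 3′ ends of mt-Nd5 and mt-Nd6 overlap on opposite strands and the strand setting of the counting is not given in the sources used here, so reads of the 1 gene and of the other may not be separated there.

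Of the 37 genes, 21 passed the filter on low counts, which were both rRNAs, 8 mRNA genes and 11 tRNA genes. edgeR called 0 of these 21 at an adjusted p under 0.05, against 1.51% of all tested genes (245 of 16233), and 2 of the 21 had an unadjusted p under 0.05, as had 22.3% of all tested genes. DESeq2 called 1, mt-Rnr2, and 10.9% of all tested genes. Every forskolin library was above every DMSO library in 2 of the 21, mt-Rnr2 and mt-Cytb, while this held for 10.3% of all tested genes. The reverse order was seen in 0 of the 21 and in 16.2% of all tested genes.

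**Figure D2:**
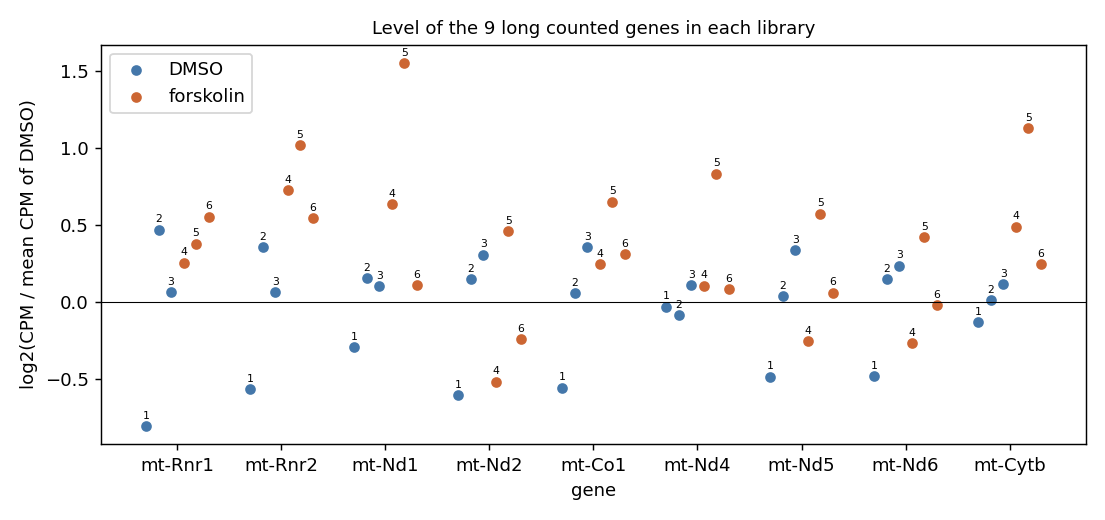
Log2 ratio of the CPM of each library to the mean of the DMSO libraries (y axis) for the 9 long and well-counted genes in their order on the genome (x axis), with DMSO libraries in blue, forskolin libraries in orange and library numbers above the points. mt-Rnr2 and mt-Cytb are the genes without overlap between the groups, library 1 is the lowest library for mt-Rnr1, mt-Rnr2, mt-Nd1, mt-Nd2, mt-Co1, mt-Nd5, mt-Nd6 and mt-Cytb, and library 5 is the highest for all but mt-Rnr1.

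The makeup of the mitochondrial mRNA was described as each gene's percent of its counts, which does not depend on the scaling of libraries. mt-Co1 held most of it, at 62.7%, 66.1% and 69.1% with DMSO and 66.3%, 59.6% and 70.1% with forskolin. Of the 5 well-counted complex I genes, 3 had a lower share in every forskolin library than in any DMSO library, and 2 overlapped. Each of the 3 had an exact permutation p of 0.1. These are shares of the mRNA total, a measure with no value over all genes. In CPM the groups of these 3, mt-Nd2, mt-Nd5 and mt-Nd6, overlapped (edgeR log2 differences -0.04, 0.17 and 0.07). In CPM, 16.2% of all tested genes were lower in every forskolin library. mt-Nd2 held 6.38%, 7.40% and 7.02% with DMSO and 4.12%, 5.50% and 5.03% with forskolin. mt-Nd5 held 4.56%, 4.52% and 4.71% with DMSO and 3.25%, 3.92% and 4.08% with forskolin. mt-Nd6 held 0.551%, 0.586% and 0.529% with DMSO and 0.388%, 0.424% and 0.463% with forskolin. mt-Nd1, with 11.5%, 10.8% and 8.87% against 13.3%, 17.1% and 9.35%, had the higher mean share with forskolin (exact permutation p = 0.3). mt-Nd4 held 2.97%, 1.97% and 1.92% against 1.98%, 2.23% and 1.97% (exact permutation p = 0.9). Since shares of 1 total depend on each other, these are not separate observations.

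Set against the other mRNAs, mt-Nd6 was lower with forskolin by 0.39 on the log2 scale, from -7.50, -7.41 and -7.55 with DMSO to -8.00, -7.88 and -7.75 with forskolin (exact permutation p = 0.1). Taken against the mean of the log2 counts of the other 12 genes, those near 0 included, the difference was -0.69 with an exact permutation p of 0.5. The pair mt-Nd1 and mt-Nd2, which are neighbours on the plus strand with 3 tRNA genes between them, was examined after their values were seen. There were 1.80, 1.47 and 1.26 mt-Nd1 counts for each mt-Nd2 count with DMSO and 3.24, 3.11 and 1.86 with forskolin. The forskolin libraries were all above the DMSO libraries, though library 6 exceeded library 1 by little.

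The 6 mRNA genes with fewer than 100 counts lie next to each other. They are mt-Co2, mt-Atp8, mt-Atp6, mt-Co3, mt-Nd3 and mt-Nd4l, which span chrM:7013-10173 together with tRNA genes, and encode subunits of complex IV, ATP synthase and complex I. Their summed counts were 0, 50 and 0 with DMSO and 65, 193 and 1 with forskolin, while the 7 other mRNA genes summed to between 189903 and 489523 counts in a library. mt-Co3 had 0, 25 and 0 counts with DMSO and 33, 73 and 1 with forskolin, and it alone of the 6 passed the filter (edgeR adjusted p = 0.519). mt-Co2 reached 54 counts, mt-Atp6 37, mt-Nd3 15, mt-Nd4l 14 and mt-Atp8 1, each maximum but that of mt-Atp8 in library 5. A count of 0 allows up to 3 counts. The subunits that these genes encode are core parts of working enzymes, so a count near 0 says only that few reads were assigned to these rows.

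The stretch that holds these genes has a nearly identical copy in the nuclear genome, on the minus strand of chr1:24611535-24616197 in GRCm38 (4663 bases). In the GENCODE M21 annotation, pseudogenes there matched mt-Co2, mt-Atp6, mt-Co3, mt-Nd3 and mt-Nd4l over at least 98.99% of their length at 99.71% to 100% identity. An annotated pseudogene covered 21.1% of mt-Atp8; on chromosome 1 there are 233 bases between the copies of mt-Co2 and mt-Atp6, and on the mitochondrial chromosome 230 between the genes. The copy runs into the 3′ part of mt-Co1 (31.3% of its length) and covers the 5′ part of mt-Nd4 (63.6%), the well-counted genes on either side. Outside the stretch, pseudogenes on chromosome 2 matched the whole of mt-Co1 (Gm13340, 97.6% identity) and of mt-Co2 (Gm13341, 95.9%), and pseudogenes on chromosomes 4 and 13 matched mt-Nd5, mt-Nd6 and mt-Cytb in whole or in part with 92.3% to 95.2% identity. The copies on chromosome 1 were not analysed here, and whether reads of the 6 genes were assigned to them was not tested.

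Sequences of the coding strand, from GENCODE M21 transcripts, show how close the copy is. The first 43 bases of mt-Nd3 and of its copy Gm28438 differ at 1 base, T3C counted from the first base of the gene, which is in capitals. The 297 bases of mt-Nd4l are the same as those of the copy Gm10222 up to the last 3, in capitals, which lie past the end of that annotated copy. In bases 837 to 916 of mt-Nd4 the capitals mark the bases past the end of the copy Gm28439, from which a read of mt-Nd4 can be told from that copy.
mt-Nd3: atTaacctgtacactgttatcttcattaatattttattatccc
Gm28438: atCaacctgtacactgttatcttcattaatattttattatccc
mt-Nd4l: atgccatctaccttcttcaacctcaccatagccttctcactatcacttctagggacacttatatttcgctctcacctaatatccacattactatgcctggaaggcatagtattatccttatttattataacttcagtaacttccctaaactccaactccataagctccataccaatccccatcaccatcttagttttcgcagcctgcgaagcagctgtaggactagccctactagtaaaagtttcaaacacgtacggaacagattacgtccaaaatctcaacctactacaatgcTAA
mt-Nd4: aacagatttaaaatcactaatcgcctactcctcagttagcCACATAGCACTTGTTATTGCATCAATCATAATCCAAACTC

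**Figure D3:**
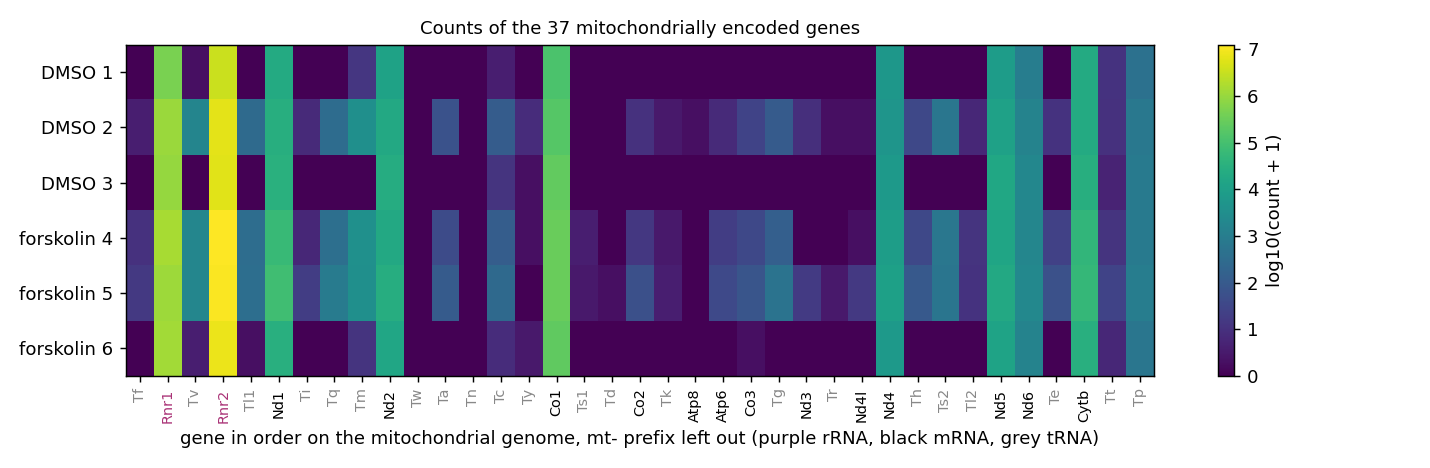
Counts of the 37 mitochondrially encoded genes (x axis, in genome order) in the 6 libraries (y axis), coloured by log10(count + 1). The rRNA genes and mt-Co1 are the brightest columns, the mRNA genes from mt-Co2 to mt-Nd4l have fewer than 100 counts in every library, and tRNA columns such as mt-Tm, mt-Tv, mt-Ts2 and mt-Tg are well above 0 only in libraries 2, 4 and 5.

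The tRNA genes followed the split in short nuclear RNAs and not the treatment. Their summed counts were 476, 7539 and 783 for DMSO (libraries 1 to 3) against 8240, 9216 and 622 for forskolin (libraries 4 to 6). As shares of all counts these were 0.00168%, 0.0241% and 0.00222% with DMSO and 0.0173%, 0.0249% and 0.00182% with forskolin (exact permutation p = 0.6). In 14 of the 22 tRNA genes, libraries 2, 4 and 5 were each above all of libraries 1, 3 and 6 in CPM, as were 3.32% of all 37411 rows with no filter. Among the 2041 short nuclear genes, 1152 of which had no count in any library, 150 had this order. The labels give no batch or library type that would name this split.

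The tRNAs with the most counts are shown with the anticodon in capitals, in DNA letters, 5′ to 3′, from GENCODE M21 transcripts. mt-Tm reads methionine codons, mt-Tv valine, mt-Tq glutamine, mt-Tl1 leucine (UUR codons), mt-Ts2 serine (AGY codons) and mt-Tp proline. mt-Ts2, the shortest at 59 bases, is the serine tRNA known for lacking the D arm.
mt-Tm: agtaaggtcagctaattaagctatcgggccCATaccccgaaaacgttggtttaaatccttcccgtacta
mt-Tv: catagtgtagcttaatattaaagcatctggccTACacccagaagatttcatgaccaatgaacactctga
mt-Tq: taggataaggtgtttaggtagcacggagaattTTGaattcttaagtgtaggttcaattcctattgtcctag
mt-Ts2: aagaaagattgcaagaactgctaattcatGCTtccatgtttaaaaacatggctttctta
mt-Tl1: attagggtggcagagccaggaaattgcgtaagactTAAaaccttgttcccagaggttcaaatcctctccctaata
mt-Tp: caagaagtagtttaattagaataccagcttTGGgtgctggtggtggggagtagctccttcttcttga

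mt-Tm (chrM:3845-3913), which lies directly before mt-Nd2, had 12, 3495 and 0 counts with DMSO and 3738, 3470 and 11 with forskolin. mt-Tv (chrM:1025-1093), which lies between the rRNA genes, had 1, 1744 and 0 counts with DMSO and 1854, 1761 and 3 with forskolin. Both are 69 bases long, and in libraries 2, 4 and 5 mt-Tm was the most counted tRNA and mt-Tv the next. The rRNAs on either side of mt-Tv held at least 478356 counts in every library, so the near absence of mt-Tv counts from libraries 1, 3 and 6 was not shared by its neighbours.

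The next tRNAs showed the same split. mt-Ts2 (chrM:11613-11671) had 612, 660 and 566 counts in libraries 2, 4 and 5, against 0 in the other 3. mt-Tq (chrM:3772-3842, minus strand) had 326, 390 and 909 counts in libraries 2, 4 and 5, and mt-Tg (chrM:9391-9458), the glycine tRNA, had 110, 138 and 510. Both were at 0 in the other libraries, and in both library 5 was the highest. mt-Tl1 (chrM:2676-2750) had 287, 347 and 369 counts there and at most 1 elsewhere, and mt-Tc, the cysteine tRNA, had 115, 127 and 265 against at most 11. The alanine, histidine and glutamate tRNAs mt-Ta, mt-Th and mt-Te had at most 108, 95 and 58 counts, each in library 5, and 0 in libraries 1, 3 and 6.

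mt-Tp (chrM:15356-15422, minus strand), which borders the noncoding control region, was counted at like levels in all libraries. It had 450, 713 and 767 counts with DMSO and 847, 1029 and 593 with forskolin, which is 14.1, 23.4 and 21.5 CPM against 18.0, 30.2 and 17.7 CPM. It made up 94.5%, 98.0% and 95.3% of the tRNA counts where these were few (libraries 1, 3 and 6), but 9.46%, 10.3% and 11.2% in libraries 2, 4 and 5. Its groups overlapped (edgeR log2 difference 0.16, SE 0.28, adjusted p = 0.758). Among the 11 tRNA genes that edgeR tested, the lowest adjusted p was 0.35 (mt-Te). Of the 11 tRNA genes left, 6 had at most 3 counts in every library and the rest at most 25, and mt-Tw and mt-Tn were at 0 throughout.

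**Figure D4:**
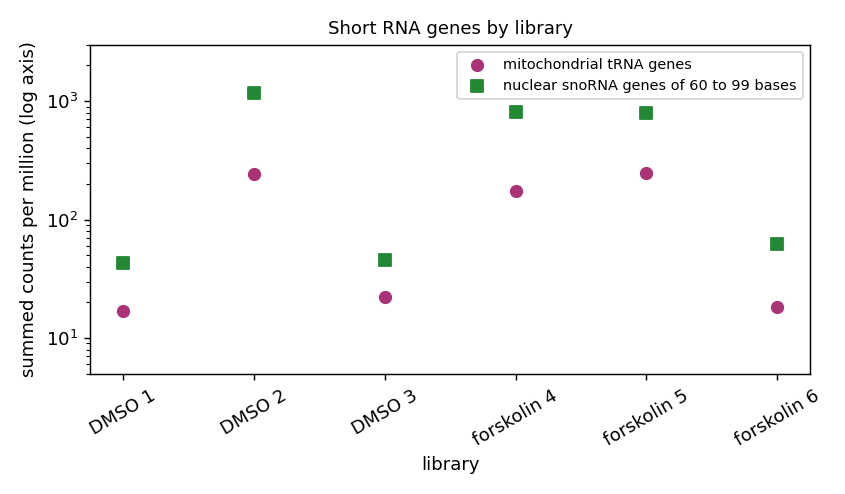
Summed CPM (y axis, log scale) of the 22 mitochondrial tRNA genes (circles) and of 436 nuclear snoRNA genes of 60 to 99 bases (squares) in each library (x axis). Both are high in libraries 2, 4 and 5, where snoRNA genes reach 1163, 807 and 788 CPM, and low in libraries 1, 3 and 6 at 42.7, 45.7 and 62.7 CPM.

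The mitochondrial mRNAs were set against the nuclear genes for subunits of the same complexes. The 71 nuclear respiratory chain genes summed to 7959, 8837 and 7957 CPM with DMSO and to 6615, 6404 and 8182 CPM with forskolin. The neuronal markers, at 4770, 5629 and 6098 CPM with DMSO and 3553, 3845 and 5696 CPM with forskolin, were also lowest in libraries 4 and 5, and their part in this difference was not tested. The median edgeR log2 difference of the 71 genes was -0.25 against 0.02 for all tested genes, and it was -0.11 without library 5 and -0.15 with the GC trend removed. By library, 28 of the 71 were lower in every forskolin library than in any DMSO library (16.2% of all tested genes were) and 4 were higher (10.3% of all tested genes). edgeR called 1 of the 71, near the 1.51% called over all tested genes. This was Atp5d, the delta subunit of ATP synthase, which fell by 0.90 on the log2 scale (SE 0.13, adjusted p = 0.0371). With upper-quartile factors, with the GC offset or without any 1 of libraries 1 to 5, edgeR called 0 of the 71. By complex the medians were -0.26 for 36 complex I genes, -0.32 for 9 complex III genes, -0.08 for 11 complex IV genes and -0.12 for 15 ATP synthase genes.

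For each count in these nuclear genes there were 0.745, 0.974 and 1.27 mitochondrial mRNA counts with DMSO and 1.48, 2.25 and 1.18 with forskolin. Library 6 lay below library 3, and the exact permutation p was 0.2. In complex III, where mt-Cytb is the mitochondrial subunit, the ratio was 0.720, 0.731 and 0.899 with DMSO and 1.37, 2.23 and 0.982 with forskolin, without overlap (exact permutation p = 0.1). The complex I ratio was 0.678, 0.857 and 1.02 with DMSO and 1.15, 2.22 and 0.921 with forskolin. The complex IV ratio was 2.50, 3.23 and 4.58 with DMSO and 5.09, 6.74 and 4.24 with forskolin. In both, libraries 4 and 5 were above the DMSO libraries and library 6 was below library 3.

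**Figure D5:**
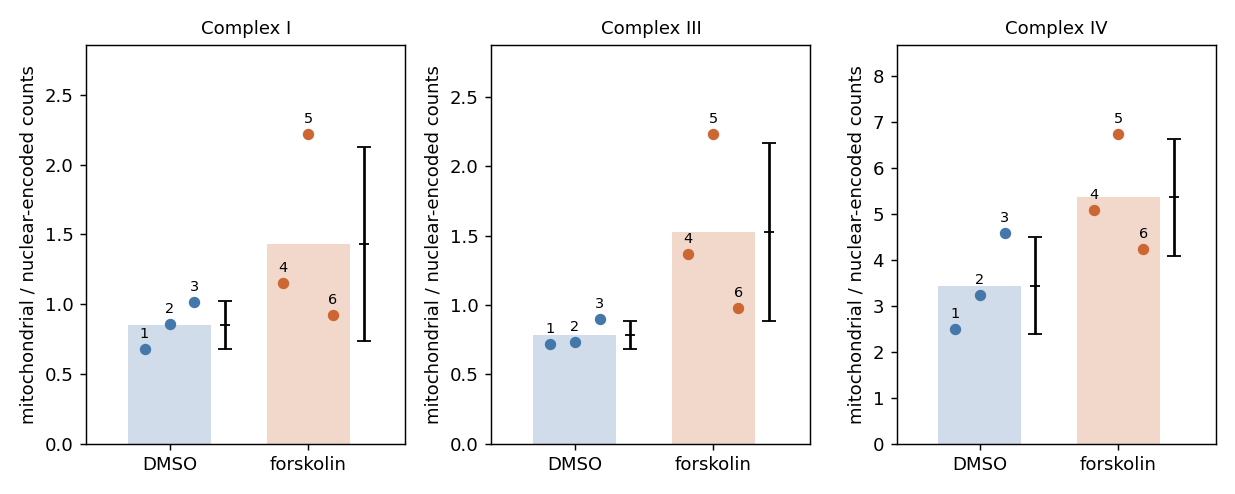
Mitochondrial mRNA counts divided by the counts of nuclear genes of the same complex (y axes) for complexes I, III and IV in the DMSO and forskolin libraries (x axes). Points are libraries with their number, bars the mean and error lines the SD of 3 libraries. Library 5 is the highest in each panel, and the groups are apart in complex III only.

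Nuclear genes that copy or transcribe mitochondrial DNA, or that process and degrade its RNA, were described from a list of 50, all of which were tested. edgeR called 0 of them, and 10 had an unadjusted p under 0.05, as had 22.3% of all tested genes. DESeq2 called 7, and 10.9% of all tested genes. The median log2 difference was 0.03 against 0.02 for all tested genes. The groups did not overlap in 6 that were higher (10.3% over all tested genes) and 10 that were lower with forskolin (16.2% over all tested genes), so by these counts the list was near the background. Polrmt, the mitochondrial RNA polymerase, was at 22.1, 22.5 and 21.6 CPM with DMSO and at 15.4, 16.7 and 10.8 CPM with forskolin, a difference of -0.63 (SE 0.18, adjusted p = 0.139). Its groups did not overlap, while Tfam, the factor that packages mitochondrial DNA and starts its transcription, differed by 0.06 (adjusted p = 0.840). The elongation factor Tefm differed by 0.003 (adjusted p = 0.994).

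Among the genes that act on mitochondrial RNA after transcription, Pnpt1, the exoribonuclease of the mitochondrial degradosome, was at 13.3, 13.6 and 18.0 CPM with DMSO and at 25.4, 27.0 and 25.5 CPM with forskolin (0.80, SE 0.16, adjusted p = 0.0667). Every forskolin library was above every DMSO library, library 6 included. Lrpprc, which stabilises mitochondrial mRNAs, differed by 0.0009 (adjusted p = 0.998), the poly(A) polymerase Mtpap by 0.16 (adjusted p = 0.562), the tRNA 3′ end nuclease Elac2 by -0.23 (adjusted p = 0.341) and the precursor processing factor Fastkd5 by -0.02 (adjusted p = 0.957), all by edgeR. Other members without overlap, chosen after their values were seen, were Slirp, the partner of Lrpprc (0.66, adjusted p = 0.0864), Fastk (-0.56, adjusted p = 0.0613) and Mrpl12, a mitochondrial ribosomal protein (-0.79, adjusted p = 0.0876).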

How the data were processed

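Per the labels' protocols, a Trizol and chloroform extraction gave the RNA of the 3 DMSO and 3 forskolin libraries, which were prepared for Illumina sequencing. The authors deposited counts per gene symbol, 1 column per library; the submitters' processing notes name Salmon, DESeq and GRCm38 without a role, so the counts may be rounded estimates. How reads that match several places were assigned is not given in the sources used here. The authors' result table held no mt- symbol and was not used.

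Coordinates, lengths, GC content and sequences came from GENCODE M21 (GRCm38), matched by symbol; 36174 of 37411 rows (96.7%) matched, the 37 mitochondrial genes among them. Nuclear copies were sought with BLAST 2.17.0 among M21 transcripts (identity at least 90%, at least 50% of the gene). Tests used R 4.3.3 with edgeR 4.0.16: filterByExpr (minimum count 10, minimum total 15), TMM factors, quasi-likelihood test, Benjamini-Hochberg adjustment over all 16233 genes, threshold 0.05. The scripts were tested on simulated data. CPM uses TMM-scaled library sizes, except for the sums over tRNA, snoRNA and other short RNA genes, which use plain library totals. Single measures were compared by exact two-sided permutation tests. Alternatives were DESeq2 1.42.0, limma 3.58.1 with and without quality weights, other scalings and filters, a GC offset, each library left out and, added after seeing the data, the short RNA split. Wilson intervals (95%) and the floor of 3 counts cover counting error only. Members and lists were chosen with earlier results of these data known. All mt- rows were members, and rRNA, mRNA and filter-passing tRNA genes were named. Of the list of nuclear genes acting on mitochondrial DNA or RNA, Polrmt, Tfam, Lrpprc, Tefm, Mtpap, Pnpt1, Elac2 and Fastkd5 were named. Others were named after their values were seen.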

Additional observations from a re-analysis of the deposited data

How the results depend on the processing

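No paired analysis was possible because the libraries are numbered 1 to 6 across both groups and no number is shared. The shares of counts in all mitochondrial, rRNA, mRNA and tRNA genes kept their direction under every denominator and with each library left out, but not their size. With a library left out the differences in percentage points were 8.27 to 13.2 for all mitochondrial genes, 8.12 to 12.98 for rRNA, 0.114 to 0.326 for mRNA and 0.000237 (without library 5) to 0.0128 (without library 2) for tRNA. The mt-Nd6 ratio to the other mRNAs (-0.39) was -0.69 as a mean of log2 values over genes. Among all genes edgeR called 245, against 1775 with DESeq2, 6795 with library quality weights, 137 with RLE factors, 102 with upper-quartile factors, 0 with the GC trend removed, 43 with the short RNA split as a term, and 0 to 5698 with a library left out (0 without any 1 of libraries 1 to 5, 5698 without library 6). Among the mitochondrial genes edgeR called 0, DESeq2 1, quality weights 3, and leaving out a library gave 0 to 2. In the list of 50 nuclear genes acting on mitochondrial DNA or RNA, edgeR called 0, DESeq2 7, quality weights 15, library size alone 1, and leaving out a library gave 0 to 8. In the 71 respiratory chain genes, edgeR called 1, DESeq2 12, quality weights 39, upper-quartile factors 0, the GC offset 0, the short RNA term 0, and leaving out a library gave 0 to 32.

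Directions reversed as follows, and the cause was not tested. The log2 ratio of rRNA to mRNA counts (0.31) was -0.062 as a mean of log2 values over genes and -0.030 within libraries 2, 4 and 5. It did not reverse within libraries 1, 3 and 6 (0.49). With a library left out it ran from 0.20 (without library 3) to 0.47 (without library 2). With the GC trend removed, the log2 differences were -0.22 for mt-Rnr1, -0.00040 for mt-Tv, -0.079 for mt-Ta, -0.0029 for mt-Co1, -0.34 for mt-Nd4, -0.52 for mt-Ts2, -0.42 for mt-Nd5, -0.68 for mt-Nd6 and -0.0038 for mt-Tp. With the short RNA split as a term they were -0.17 for mt-Tv, -0.13 for mt-Tm and -0.39 for mt-Ts2. For mt-Nd2 (-0.04) they were 0.020 with quality weights, 0.0079 with upper-quartile factors and -0.34 to 0.15 with a library left out; its largest move was to -0.71 with the GC trend removed. For mt-Nd6 the difference was -0.026 with library size alone and -0.10 to 0.21 with a library left out, and leaving out a library gave -0.054 to 0.355 for mt-Nd5, -0.10 to 0.32 for mt-Tp and -0.48 to 8.61 for mt-Ta. Genes under 100 counts in every library, and tRNA genes at or near 0 counts in libraries 1, 3 and 6, are limited by counting and by that split, and the fitted log2 differences of such genes printed above are no measure of the size of a change.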
